A study of Caenorhabditis elegans with 2 samples.

Results

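The microRNA (miRNA) genes cel-mir-51, cel-mir-52 and cel-mir-238 were examined for binding of KLU-1 in whole larvae of the nematode Caenorhabditis elegans. They are 3 of the 261 miRNA genes that Ensembl annotates on the nuclear chromosomes, and they were chosen by measured values: each had a peak of the pooled thresholded list close to its hairpin. Their presence in that list and their signals there are therefore descriptions, and nothing was tested on them. For each gene, every deposited peak with its summit from 2 kb upstream to 1 kb downstream of the hairpin was collected.

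KLU-1 is a C. elegans zinc finger protein whose name comes from Klumpfuss, a fly transcription factor. Its sites were mapped by chromatin immunoprecipitation and sequencing (ChIP-seq) in strain RW12326, where the allele st12326, a CRISPR insertion, joins TY1, EGFP and 3xFLAG tags to ZK337.2 (klu-1) and an anti-GFP antibody recovers the tagged protein. The 1 group had 2 biological replicates of L4 larvae at 47 h, grown from first-stage larvae that were starved after bleaching. Both replicates carried the tag, and a control library was not analysed here. Signal from whole animals cannot tell many cells with weak binding from few cells with strong binding.

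A miRNA is cut from a hairpin precursor and lowers the output of messenger RNAs that pair with its seed, bases 2 to 8 of the mature strand. Members of the mir-51 family act redundantly in C. elegans, and loss of the whole family is lethal in embryos, with failed attachment of the pharynx to the mouth. The miRNA of mir-238 belongs to a separate seed family with those of mir-239a and mir-239b, and loss of mir-238 is known to shorten adult life. Transcription of a miRNA gene starts upstream of its hairpin, often at a start that is not annotated, so distances here were measured from the 5′ end of the annotated hairpin.

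The mature strands show the 2 families that the chosen genes fall into. Sequences were read from the RefSeq annotation and genome of WBcel235, the assembly also called ce11. The seed is in capitals. Strands of the 5′ arm of the hairpin are marked 5p and those of the 3′ arm 3p.
cel-mir-51 5p: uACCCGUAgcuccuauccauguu
cel-mir-52 5p: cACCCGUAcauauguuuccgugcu
cel-mir-53 5p: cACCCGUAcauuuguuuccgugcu
cel-mir-54 3p: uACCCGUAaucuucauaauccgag
cel-mir-55 3p: uACCCGUAuaaguuucugcugag
cel-mir-56 3p: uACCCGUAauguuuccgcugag
cel-mir-238 3p: uUUGUACUccgaugccauucaga
cel-mir-239a 5p: uUUGUACUacacauagguacugg
cel-mir-239b 5p: uUUGUACUacacaaaaguacug

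The first 6 strands share the seed ACCCGUA and the last 3 share UUGUACU. Within the mir-51 family the shared strand came from the 5′ arm for cel-mir-51, cel-mir-52 and cel-mir-53 and from the 3′ arm for cel-mir-54, cel-mir-55 and cel-mir-56. The seed family was also split by place. The genes cel-mir-51 and cel-mir-53 lie 1480 bp apart on the minus strand of chromosome IV, cel-mir-52 lies alone on the plus strand of the same chromosome, and the other 3 form a cluster on the minus strand of chromosome X.

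The peaks that carry the result are shown next, each read 5′ to 3′ on the strand of its miRNA gene, on ce11. Capitals mark the motifs searched on either strand. These are GAGAG (which reads CTCTC on the other strand), then GTGGG (other strand CCCAC), then CACCC (other strand GGGTG) and, last, TATAAA (other strand TTTATA).
cel-mir-51, chrIV:11026080-11026319, minus strand: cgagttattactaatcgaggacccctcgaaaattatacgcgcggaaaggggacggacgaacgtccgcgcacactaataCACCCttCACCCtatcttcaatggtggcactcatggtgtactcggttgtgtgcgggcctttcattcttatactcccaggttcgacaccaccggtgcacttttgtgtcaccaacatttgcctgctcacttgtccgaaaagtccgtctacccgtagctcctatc
cel-mir-52, chrIV:14033761-14034000, plus strand: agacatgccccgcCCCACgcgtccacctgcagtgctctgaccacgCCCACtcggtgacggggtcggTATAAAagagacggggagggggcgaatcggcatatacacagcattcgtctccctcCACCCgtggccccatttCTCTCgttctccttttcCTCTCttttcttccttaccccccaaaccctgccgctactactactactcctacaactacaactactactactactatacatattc
cel-mir-238, chrIII:8867144-8867383, minus strand: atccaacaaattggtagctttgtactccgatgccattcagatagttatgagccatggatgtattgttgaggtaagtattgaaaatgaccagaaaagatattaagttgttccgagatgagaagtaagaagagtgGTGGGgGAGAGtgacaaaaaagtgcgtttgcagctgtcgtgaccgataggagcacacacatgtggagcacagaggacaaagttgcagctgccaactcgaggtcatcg
cel-mir-54, chrX:13145233-13145472, minus strand: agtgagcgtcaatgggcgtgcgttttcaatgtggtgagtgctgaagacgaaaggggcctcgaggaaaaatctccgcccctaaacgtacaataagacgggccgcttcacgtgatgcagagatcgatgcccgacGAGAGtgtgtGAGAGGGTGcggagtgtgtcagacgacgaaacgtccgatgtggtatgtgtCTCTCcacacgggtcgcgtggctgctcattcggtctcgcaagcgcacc
cel-mir-53, chrIV:11027628-11027867, minus strand: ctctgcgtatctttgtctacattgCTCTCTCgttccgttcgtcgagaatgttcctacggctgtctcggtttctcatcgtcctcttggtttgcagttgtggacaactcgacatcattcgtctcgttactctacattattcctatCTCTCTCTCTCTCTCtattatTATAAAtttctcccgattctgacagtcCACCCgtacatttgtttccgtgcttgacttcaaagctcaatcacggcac

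The first 3 intervals lie in the windows of the chosen genes. The interval upstream of cel-mir-54 also passed the authors' threshold and lies in the windows of all 3 genes of its cluster. The interval at cel-mir-53, which overlaps its hairpin by 64 bp, did not pass. Each interval is 240 bp wide, the median width in the pooled lists. The 3′ end of the cel-mir-51 interval holds the first 33 bp of the hairpin and with them the start of the mature strand. The cel-mir-52 interval ends 7 bp short of its hairpin, and the cel-mir-238 interval begins inside its hairpin, with 56 bp of overlap.

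At cel-mir-51 (WBGene00003279, chrIV:11026013-11026112) the peak summit lay 88 bp upstream of the hairpin, at position 11026200. Its signal, the authors' measure of peak strength on a scale that is not stated, was 93.4 in the pooled list. That placed it at rank 356 of 1043 thresholded peaks, where the median signal was 78.8. The summit lay in intergenic sequence with respect to protein-coding genes, inside the annotated non-coding RNA gene F36H1.17 (WBGene00219935), which ends 19 bp before the hairpin on the same strand. Such overlap was not rare, since 168 of 1043 thresholded summits (16.1%) lay in a gene of this class. The nearest coding genes were alh-3, an aldehyde dehydrogenase gene whose end lay 330 bp from the summit, and the heme responsive gene hrg-5, 2089 bp away. The same search window drawn around alh-3 also took in this summit, and the lists do not say to which gene it belongs. The closest start of a coding transcript, that of hrg-5, lay 2985 bp from the summit.

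At cel-mir-52 (WBGene00003280, chrIV:14034008-14034107) the summit lay 127 bp upstream of the hairpin, at position 14033881. The pooled signal was 68.03, at rank 707 of 1043. This gene stands far from coding genes: irld-55 ended 9253 bp and Y37A1B.7 ended 8714 bp from the summit. The summit lay inside Y37A1B.330 (WBGene00195705), an annotated non-coding RNA gene on the same strand that stops 4 bp before the hairpin. Both chosen genes of the mir-51 family therefore had their summit upstream of the hairpin, in an annotated non-coding RNA that runs towards it.

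At cel-mir-238 (WBGene00003331, chrIII:8867328-8867425) the summit lay on the other side. It was 161 bp downstream of the 5′ end, or 64 bp past the 3′ end of the hairpin, at position 8867264. The pooled signal was 70.8, at rank 650 of 1043. No annotated non-coding RNA gene held this summit. The same summit lay 1897 bp upstream of cel-mir-80, a gene of the bantam-related mir-58 family on the same strand, whose hairpin is separated from that of cel-mir-238 by 1960 bp. It thus fell in the search window of both genes, and the lists do not say to which of them it belongs. A weaker pooled ranked peak, with a signal of 59.2, lay 248 bp upstream of cel-mir-80 and did not pass. The coding genes nearest to the cel-mir-238 summit were K01F9.2, 2835 bp away, and plg-1, a mating plug gene, 14258 bp away.

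**Figure D1:**
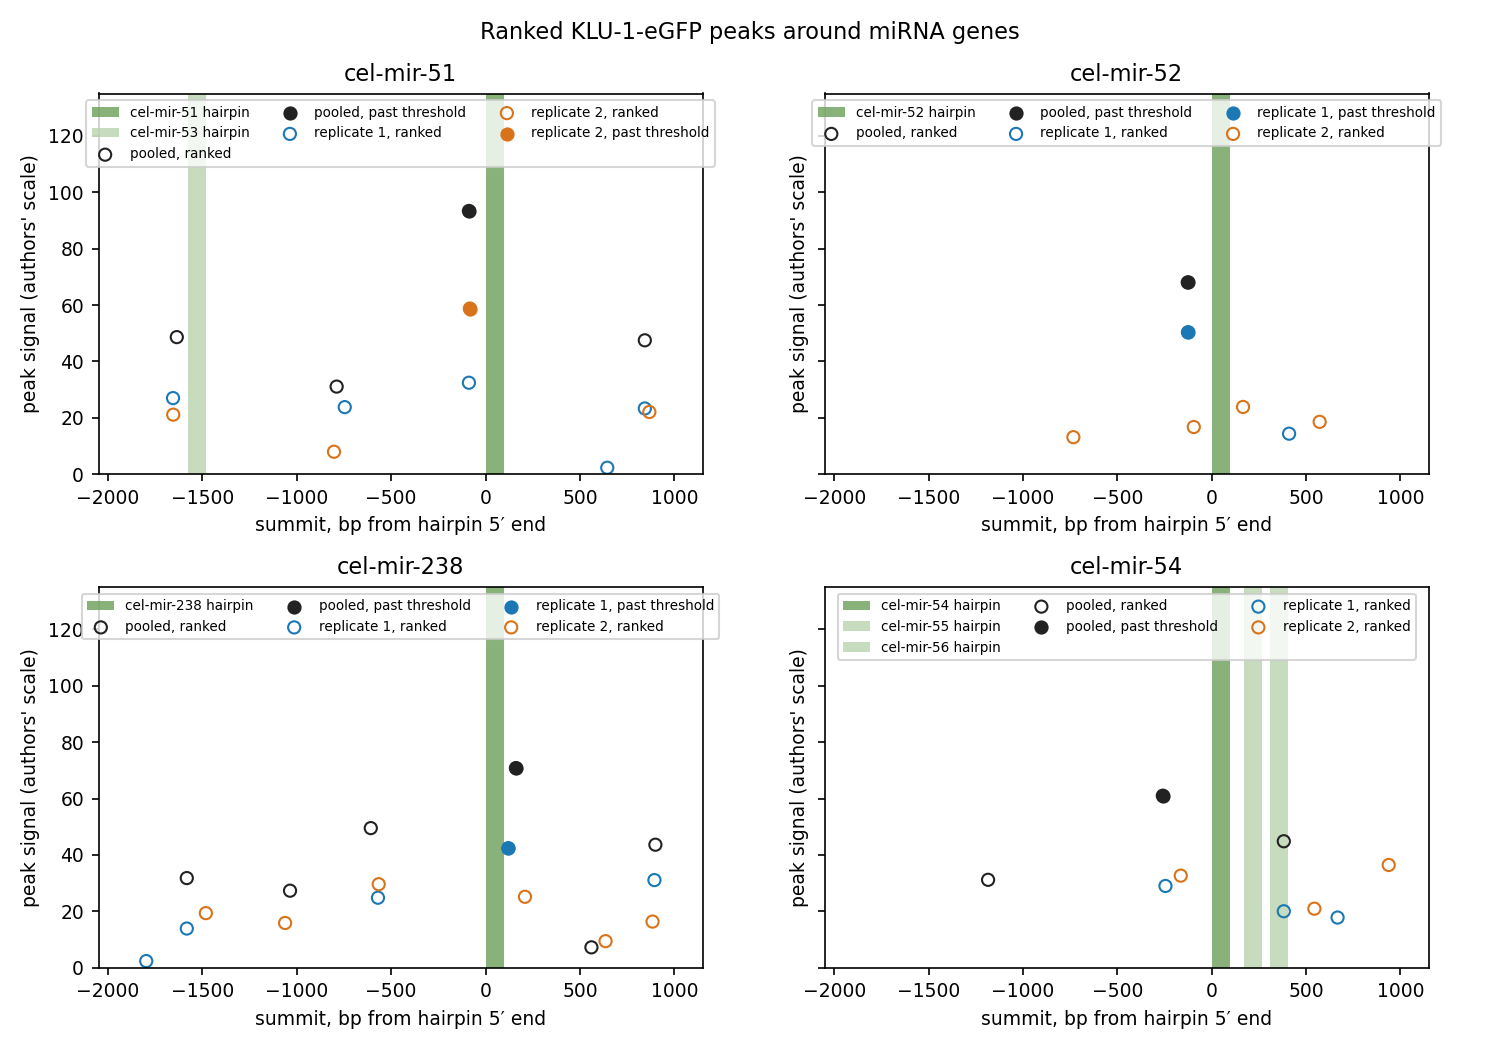
Summit position in bp from the hairpin 5′ end (x axis, upstream to the left) and peak signal on the authors' scale (y axis) for the ranked peaks in the windows of cel-mir-51, cel-mir-52, cel-mir-238 and cel-mir-54, in the pooled list and in each replicate's list. Filled points are past the authors' threshold and green bands are hairpins. The summits past threshold lie upstream of the hairpin at cel-mir-51 (-88 bp), cel-mir-52 (-127 bp) and cel-mir-54 (-259 bp) and past it at cel-mir-238 (161 bp).

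The replicates gave these peaks different strengths. At cel-mir-51 the signal in the replicate's own ranked list was 32.5 in replicate 1 and 58.8 in replicate 2, with a mean of 45.6 ± 18.6 (SD, n = 2). The order was the opposite at cel-mir-52, with 50.4 in replicate 1 and 16.8 in replicate 2 (33.6 ± 23.8, SD, n = 2). At cel-mir-238 replicate 1 gave 42.4 and replicate 2 gave 25.2 (33.8 ± 12.2, SD, n = 2). Replicate 2 was thus high at cel-mir-51 and replicate 1 at the other 2 genes. Given these spreads, the order of the 3 genes differed between the replicates, and their signals cannot be ranked beyond the replicate error.

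Over the 1003 pooled thresholded peaks matched in both ranked lists, the ratio of replicate 1 to replicate 2 signal had a median of 1.038 and quartiles of 0.825 and 1.337. The ratio was 0.553 at cel-mir-51, and 94.0% of the 1003 peaks had a ratio at or above it. It was 1.684 at cel-mir-238, with 10.1% at or above it. At cel-mir-52 it was 3.002, and only 8 of the 1003 peaks (0.798%), that of cel-mir-52 among them, were at or above this value. All 3 ratios lay outside the quartiles. These shares are over peaks of the same pair of libraries, and the signals were not rescaled between lists.

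**Figure D2:**
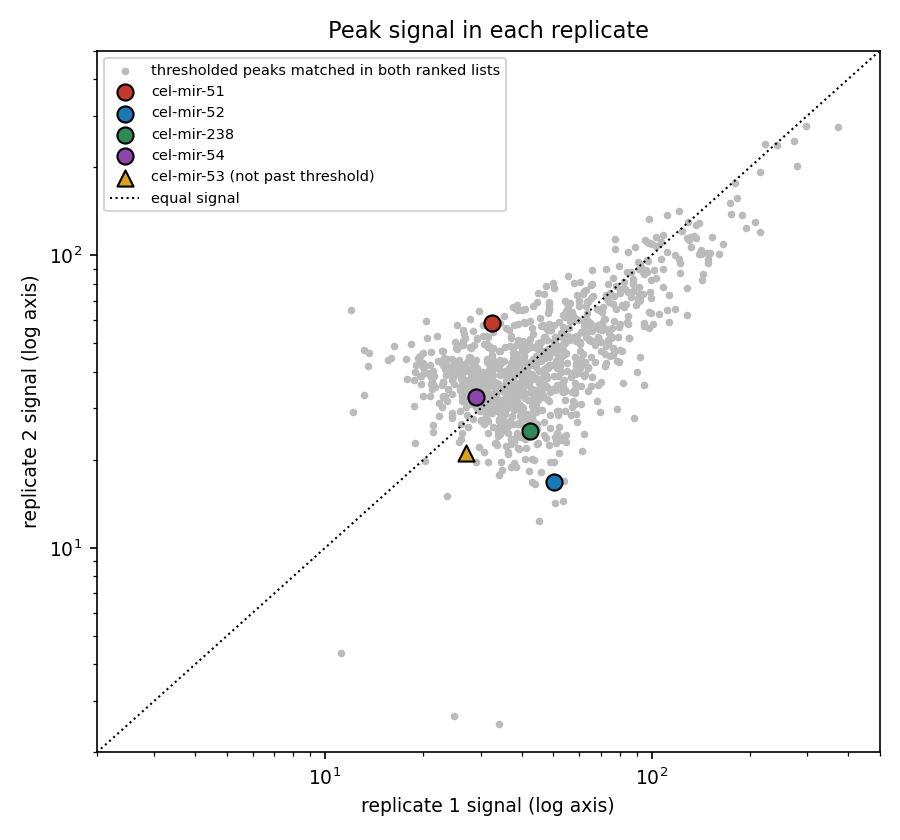
Signal in replicate 1 (x axis) against replicate 2 (y axis), both log axes on the authors' scale. Grey points are the 1003 pooled thresholded peaks matched in both ranked lists, coloured points are the peaks at miRNA genes, the triangle is the cel-mir-53 peak that did not pass, and the dotted line marks equal signal. The cel-mir-52 point (50.4 and 16.8) lies far below the line and the cel-mir-51 point (32.5 and 58.8) above it.

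The irreproducible discovery rate (IDR) expresses how poorly a peak agrees between the paired inputs that the authors' procedure compares, and a peak passed at an IDR of 0.01, a −log10 of 2. In the pooled ranked list the −log10 IDR was 2.87 at cel-mir-51, 2.24 at cel-mir-52 and 2.43 at cel-mir-238. In the conservative ranked list it was 2.69, 0.839 and 1.92, so that cel-mir-51 alone of the 3 genes had a peak in the conservative thresholded list, while that of cel-mir-238 missed it narrowly (IDR 0.0121). In replicate 1 the values were 0.920, 2.64 and 2.19, and cel-mir-52 and cel-mir-238 passed at ranks 346 and 478 of 566. In replicate 2 they were 2.85, 0.102 and 0.308, and cel-mir-51 passed, at rank 200 of 378.

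None of the 3 peaks was in the thresholded lists of both replicates, a property of 291 of all 1043 pooled thresholded peaks (27.9%). Being in the list of replicate 1 only, as at cel-mir-52 and cel-mir-238, applied to 23.2% of those peaks. Being in the list of replicate 2 only, as at cel-mir-51, applied to 7.0%. Each gene therefore had a passing peak in the list of 1 replicate: from the list of replicate 2 alone, 1 of the 3 genes had a thresholded summit in the window, and from that of replicate 1 alone 2 did. A ranked peak matched each of the 3 in both replicates, as for 1003 of the 1043 thresholded peaks, but the match at cel-mir-52 in replicate 2 stood at rank 31940 of 95500 with an IDR of 0.79.

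**Figure D3:**
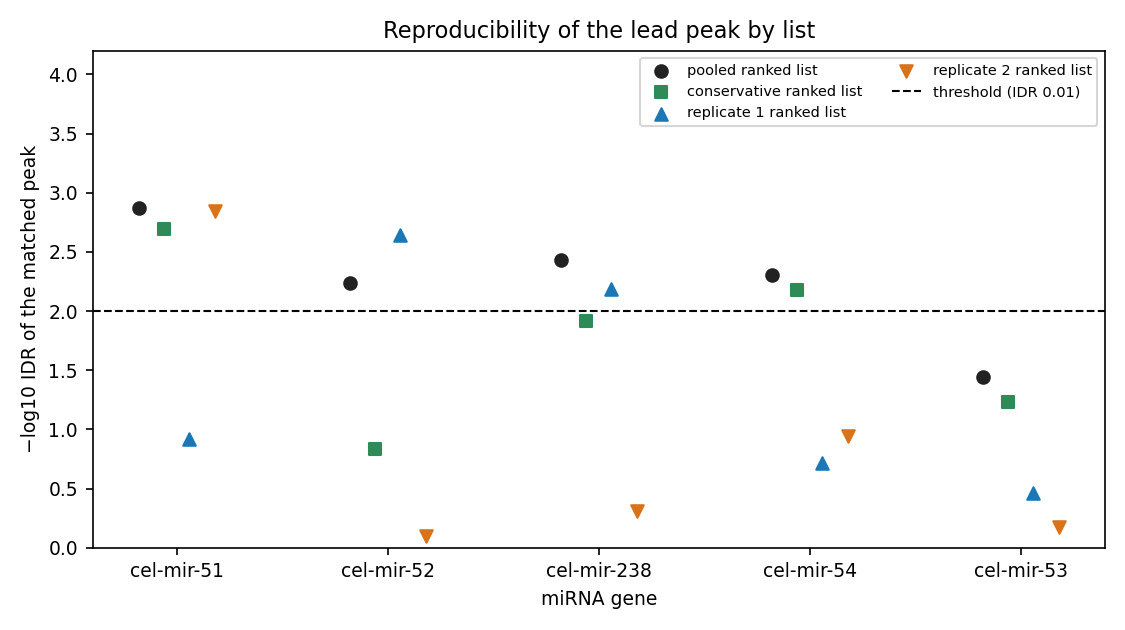
The −log10 IDR (y axis) of the ranked peak matched to the lead peak of each miRNA gene (x axis), in the pooled, conservative and single-replicate ranked lists. Points above the dashed line at 2 are past the authors' threshold. The cel-mir-51 peak is above the line in all lists but that of replicate 1, and the cel-mir-53 peak is below it in all 4.

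Summit positions were reproduced to different degrees. The replicate summits lay 5 bp apart at cel-mir-51, 31 bp apart at cel-mir-52 and 88 bp apart at cel-mir-238. Over the 1003 matched peaks the median distance was 19 bp with quartiles of 6 and 39 bp, and 3.69% were as far apart as those of cel-mir-238 or farther. At cel-mir-238 the replicate 1 summit lay 121 bp and the replicate 2 summit 209 bp from the 5′ end, on the same side of the hairpin. In replicate 2 the cel-mir-52 window held peaks elsewhere that were stronger than the 16.8 upstream. They lay 166 bp (signal 23.9) and 572 bp (18.6) downstream of the 5′ end.

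In the pooled ranked list, weaker peaks surrounded 2 of the 3 genes. The cel-mir-51 window held 4 pooled ranked summits, the other 3 at 1636 bp upstream (signal 48.6), 789 bp upstream (31.1) and 844 bp downstream (47.5), and none of these passed. Replicate 1 gave 27.0 and replicate 2 gave 21.2 at the first, and 23.3 and 22.1 at the downstream one. Near the summit 789 bp upstream they differed more, with 23.8 in replicate 1 (746 bp upstream) and 8.01 in replicate 2 (803 bp upstream). The cel-mir-52 window held no other summit in the pooled ranked list. The cel-mir-238 window held 6, and the closest to passing was a summit 608 bp upstream of the hairpin, with a signal of 49.5 and a −log10 IDR of 1.83. At that upstream site replicate 2 gave 29.6, more than the 25.2 it gave at the thresholded summit, and replicate 1 gave 24.9. The remaining 4 had pooled signals from 7.26 to 43.6.

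The other genes of the mir-51 family also had peak summits upstream of their hairpins. The summit in the cel-mir-51 window that lay 1636 bp upstream is also the strongest at cel-mir-53 (WBGene00003281), 57 bp upstream of that hairpin. With a signal of 48.6 and a −log10 IDR of 1.45 it did not pass in any list, although the replicate summits were 1 bp apart. Upstream of the cluster, the summit at chromosome X position 13145353 lay 259 bp from cel-mir-54, 429 bp from cel-mir-55 and 566 bp from cel-mir-56. It passed with a pooled signal of 61.02, at rank 889 of 1043. It lay in an intron of F09A5.3, a gene on the opposite strand that hosts the cluster, 3752 bp from the start of that gene. Replicate 1 gave 29.0 and replicate 2 gave 32.7 (30.9 ± 2.59, SD, n = 2). The peak was in the conservative list and in the thresholded list of neither replicate. Being in neither replicate list applied to 437 of the 1043 pooled thresholded peaks (41.9%). The replicate summits lay 81 bp apart, a distance that 5.28% of the matched peaks reached or passed. The strongest replicate 2 peak in the cel-mir-54 window lay elsewhere, 938 bp downstream of the 5′ end (36.5).

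In all, 5 of the 6 mir-51 family genes had a pooled thresholded summit in the window, against 20 of all 261 miRNA genes (7.66%). Those 5 genes shared 3 summits, and 2 of the 5 had been chosen for having one, so the share describes the family and was not tested. In the conservative list 4 of the 6 had one, beside 18 of all 261 miRNA genes. In the list of replicate 1 it was 1 gene, cel-mir-52, beside 10 of all miRNA genes. In that of replicate 2 it was 1 gene, cel-mir-51, beside 6. The strongest pooled ranked summit lay within 300 bp upstream of the hairpin for 4 of the 6 genes, cel-mir-53 (57 bp), cel-mir-51 (88 bp), cel-mir-52 (127 bp) and cel-mir-54 (259 bp), and farther upstream for cel-mir-55 and cel-mir-56. Over the 248 miRNA genes with any ranked summit in the window, it lay in this stretch for 41 (16.5%), these 4 among them. Of the 4, cel-mir-51 and cel-mir-52 had been chosen for a peak close to the hairpin. In replicate 1 the count was again 4 of 6, and in replicate 2 it was 2 of 6, cel-mir-51 and cel-mir-53. The share over all miRNA genes was not counted in the replicate lists, so these 2 counts have no value to stand beside.

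In the mir-238 family, cel-mir-238 was the only gene with a thresholded summit. The genes cel-mir-239a and cel-mir-239b lie head to head on chromosome X, and neither had a thresholded summit in any list. Their windows overlap, and the strongest pooled ranked peak in both was the same one, with a signal of 34.6. It lay 1666 bp upstream of cel-mir-239a and 620 bp downstream of the 5′ end of cel-mir-239b. A summit inside the hairpin of cel-mir-239b, 18 bp from its 5′ end, had a pooled signal of 30.4. The conservative ranked list held a further peak of signal 36.5, 227 bp upstream of cel-mir-239a, which did not pass.

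Among miRNA genes as a class, a thresholded summit was about as frequent as among coding genes. The same window rule took in 1398 of 19973 protein-coding genes (7.0%), although their windows were longer, with a median of 5.03 kb against 3.1 kb. Of all 128328 pooled ranked peaks, 1043 (0.813%) were in the thresholded list. The 20 miRNA genes shared 16 summits. From the thresholded list of replicate 2 alone (378 peaks) the count of miRNA genes was 6, and from that of replicate 1 alone (566 peaks) it was 10. Both lists are shorter than the pooled one, and the share of coding genes was not counted in them. Only 7 of the 20 had the summit within 200 bp of the gene. All 3 chosen genes were among these, since they had been chosen for a peak close to the hairpin.

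The other miRNA genes with a thresholded summit in the window ranged widely in signal and distance. The highest was cel-mir-72 (216.0, with the summit 1627 bp upstream), followed by cel-mir-2216 (156.7, 1802 bp upstream) and cel-mir-2221 (116.6, 1298 bp upstream). Summits lay inside the genes cel-mir-8209 (101.9), cel-mir-4936 (101.1) and mir-2214 (68.3). Upstream summits were also found at cel-mir-2 (78.2, 275 bp), cel-mir-71 (60.6, 98 bp), a miRNA gene with a known role in lifespan, and cel-mir-235 (96.4 at 1105 bp and 78.1 at 1867 bp). Both cel-mir-235 summits and the one shared by cel-mir-4921 and cel-mir-4923a (69.5) lay within 200 bp of a tRNA, snoRNA or snRNA gene, which none of the summits at the chosen genes did. The remaining 2 were cel-mir-4929 (67.1, 982 bp downstream of its 5′ end) and cel-mir-55b, annotated opposite cel-mir-55.

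By the highest pooled ranked signal in the window, cel-mir-51 was 7th, cel-mir-238 tied with cel-mir-80 for the 9th place and cel-mir-52 was 14th of 248 genes, whose median was 35.0 with quartiles of 29.3 and 44.6. The genes closest to cel-mir-51 on this measure were cel-mir-235 (96.4), cel-mir-4936 (101.1) and cel-mir-8209 (101.9). Those closest to cel-mir-52 were mir-2214 (68.3), cel-mir-4929 (67.1) and cel-mir-4921 (69.5). For cel-mir-238 they were cel-mir-80 (70.8, the same peak), cel-mir-4921 and cel-mir-4923a (69.5 each). At the threshold, cel-mir-71 was just inside with a −log10 IDR of 2.01. By signal cel-mir-78 (58.1) and by −log10 IDR cel-mir-1819 and cel-mir-2212 (1.98 each) were the genes just outside. The lowest of the chosen genes, cel-mir-52, stood at 2.24, and cel-mir-53 at 1.45.

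**Figure D4:**
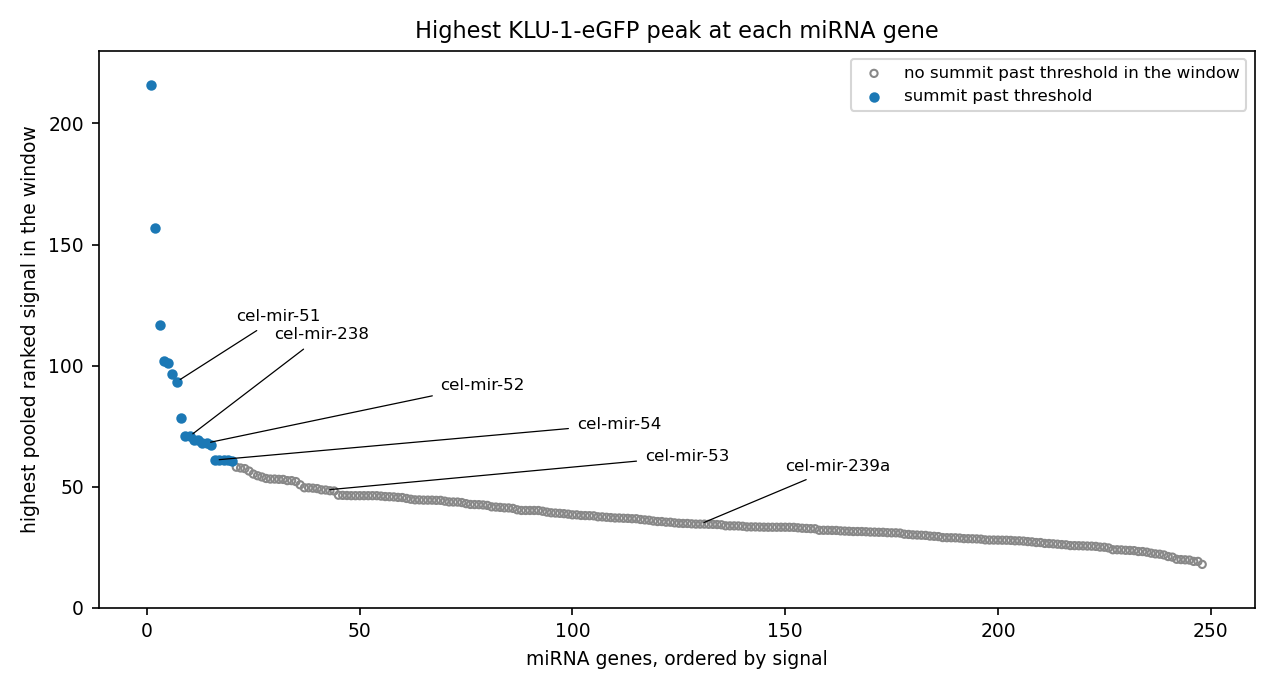
Highest pooled ranked signal on the authors' scale (y axis) in the window of each of the 248 miRNA genes with a ranked summit, ordered from high to low (x axis). Blue points are the 20 genes with a summit past threshold. These 20 hold the first 20 places, with cel-mir-51 at 93.4, cel-mir-238 at 70.8 and cel-mir-52 at 68.03, while cel-mir-53 (48.6) and cel-mir-239a (34.6) lie among the open points.

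Other miRNA families were described by the same window rule. No gene of the let-7 family (0 of 4), the lin-4 family (0 of 2) or the mir-35 family (0 of 8) had a thresholded summit in the window, and the highest pooled ranked signals were 43.7, 50.8 and 46.3. These families time larval development, or in the case of mir-35 act in embryos. Of the listed mir-58 family genes 4 were matched, and 1 of these had one, cel-mir-80, through the peak beside cel-mir-238. The annotated genes cel-mir-58b and cel-mir-58c were not on that list under these names, and neither had a thresholded summit (highest signal 38.4 each). Whether the unmatched listed name, mir-1834, stands for one of them was not checked. In the mir-2 family 1 of 4 did, cel-mir-2. These counts stand beside 7.66% for all miRNA genes and were not tested.

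Of 17 gene names listed for proteins that make or use small RNAs such as miRNAs, 16 were matched by name. Of the 16, vig-1, which encodes a component of an RNA-induced silencing complex, was the only one with the start nearest to a pooled thresholded summit (signal 107.7, 418 bp from the start), beside 951 of 19973 protein-coding genes (4.76%). Without replicate 2 there were 2 such genes, since alg-1, an Argonaute gene, was nearest to a replicate 1 peak. By the window rule 3 of the 16 had a thresholded summit, beside 7.0% of protein-coding genes: vig-1, nhl-2 (highest ranked signal in the window 121.8) and xrn-2, an exoribonuclease gene (247.03). Of the other 13 genes, 12 had a ranked summit in the window, and the highest signal in it ran from 29.8 at drsh-1 (Drosha) to 62.6 at ain-1, a gene for an Argonaute partner of the GW182 kind. Between these lay rde-4 (56.8), xrn-1 (55.1), tsn-1 (54.5), cgh-1 (50.8), dcr-1 (Dicer, 48.9), ccr-4 (46.1), alg-1 (38.1), pash-1 (the partner of Drosha, 35.6), alg-2 (33.9) and ain-2 (30.4). The listed name hen-1 is in C. elegans a gene for a secreted protein and not the miRNA methyltransferase of other species. It had no ranked summit in the window and remains in the counts of 16 and 13. At cdh-3, a cadherin gene and target of the mir-51 family, the highest was 38.4.

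None of the searched motifs lay within 50 bp of the summit at all 3 chosen genes, and no other motifs were searched. Within 50 bp of the summit, CACCC was present at cel-mir-51 and cel-mir-52 and absent at cel-mir-238, against 15.4% of all thresholded summits and 8.05% of the ranked summits that had not passed. GAGAG was present at cel-mir-52 and cel-mir-238 and absent at cel-mir-51, against 32.9% and 14.8%. GTGGG was present at cel-mir-238 alone of the 3, against 20.5% and 9.45%, and TATAAA at none of them, against 5.18% and 8.27%. At cel-mir-54 both GAGAG and CACCC were present, overlapping in one stretch, and at cel-mir-53 GAGAG and TATAAA. A match describes these letters only and is no evidence of a site.

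Base composition varied as well. The GC content within 50 bp of the summit was 50.5% at cel-mir-51, 53.5% at cel-mir-52 and 40.6% at cel-mir-238. It was 58.4% at cel-mir-54 and 38.6% at cel-mir-53. The mean was 49.0% over thresholded summits and 39.0% over ranked summits that had not passed. The longest run of only purines or only pyrimidines on one strand of the interval was 27 bases at cel-mir-52 and 17 at cel-mir-53, against 9 to 10 bases at the other 3. All 31-base words within 100 bp of these 5 summits occurred once in the reference (100% each).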

How the data were processed

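Per the labels, ChIP-seq was done on 2 biological replicates of whole L4 larvae, with chromatin sheared by sonication to 200 to 800 bp. The authors deposited peak lists on ce11, called on each replicate alone and on both together. The deposited signal per peak and the deposited score, which the authors derived from the IDR, are used as given, as is the deposited −log10 of the IDR in the ranked lists. Which aligner and which caller were used is not given in the sources used here. Since the lists hold no read counts, depth and its precision are unknown. In each ranked list, 8 further columns per peak name no sample and were not used. Of 1140 pooled ranked peaks past an IDR of 0.01, 97 are not in the thresholded list, and they were kept out of the 127188 that had not passed.

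Genes came from Ensembl release 115 (WBcel235) on 6 chromosomes. A gene had a peak if a summit lay from 2 kb upstream to 1 kb downstream. The lead peak of a gene was the one of highest pooled ranked signal there. Peaks of separate lists were matched by 50% of the shorter peak, taking the closest summit. A coding gene was nearest by its transcript start. One miRNA gene was matched through RefSeq by symbol and position, and 2 listed names, mir-1834 and ntl-1, were not matched. Genes were named by a rule: the members, their families, other miRNA genes with a thresholded summit, neighbours, listed pathway genes with a peak, and genes of like signal. The pathway genes without a thresholded peak and the genes at the threshold were named after their values were seen. The members and lists were chosen with earlier results of these data known. With 1 group and no counts, no test was run. Alternatives were the conservative list, each replicate alone, peaks at or above the median signal, other windows and other matching rules. Window and matching procedures were tested on simulated data, in Python 3.11.15 with pandas 2.3.3 and numpy 2.4.6.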

Additional observations from a re-analysis of the deposited data

How the results depend on the processing

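The count of 20 miRNA genes with a thresholded summit in the window was 6 to 10 when a replicate was left out, 7 in the part of the list at or above its median signal, 7 with summits within 200 bp of the gene and 11 within 500 bp. It was 18 in the conservative list and 20 with any base of the peak in the window. These lists differ in length, with 566 thresholded peaks in replicate 1 and 378 in replicate 2 against 1043 in the pooled list. The count of 3 chosen genes was 1 to 2 when a replicate was left out, 1 in the conservative list and 1 in the stronger part of the list, where the gene was cel-mir-51 both times. It was 3 under the other windows. The count of chosen peaks in both replicate lists was 0 under every overlap rule tried. The 5 motif matches at the 3 chosen summits were 3 at the summits of replicate 1, 5 at those of replicate 2 and 7 within 100 bp. The count of 1 pathway gene was 1 to 2 when a replicate was left out and 3 with the window rule. The cause of these shifts was not tested. The pooled and conservative ranked lists gave the same signal at each of the 3 peaks. No paired analysis was possible because the design holds 1 group. Read depth is unknown, and with 2 replicates and no control animals no error beyond the replicate spread could be given.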
